A study of Mus musculus with 12 samples.

Results

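IL-17A and IL-36γ were injected into mouse ear skin alone and together, and the comparison described here asks whether the response to both cytokines was the response that the single injections would give if they combined without influencing each other. IL-17A is a cytokine of T cells that signals through a receptor of IL-17RA and IL-17RC in keratinocytes and stromal cells. It activates NF-κB, induces C/EBP factors and stabilises short-lived mRNAs. IL-36γ is a member of the IL-1 family made mainly by keratinocytes, which signals through IL-1RL2 and IL-1RAP to NF-κB and MAP kinases. The pathways meet at shared target genes such as antimicrobial proteins, chemokines and acute-phase proteins, and both cytokines are abundant in psoriatic skin.

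All 12 libraries of the series were used, taken as the 4 cells of a crossed design with IL-17A present or absent and IL-36γ present or absent. Each group held 3 libraries from C57BL/6 mice aged 8 weeks. The ear pinnae received intradermal injections of PBS, of 1 µg IL-17A, of 1 µg IL-36γ or of 1 µg of each, in a volume of 5 µL, so that the PBS mice had the same handling without cytokine. The study's methods describe treatment on consecutive days, and tissue was taken at day 4. The number of injections is not given in the sources used here. The study had 5 mice in each group and sequenced 3 of them, drawn at random, as 1 library per mouse. The RNA came from whole ear skin, which also holds cartilage, muscle, fat and vessels, and in such bulk samples fewer cells of a type and less RNA per cell cannot be told apart. Between 25293468 and 34759293 reads were counted per library. Of 50684 genes listed, 19408 passed the filter on low counts and were tested. Libraries of a group were not alike in everything: the summed level of 15 skeletal muscle genes was 1546 CPM in PBS replicate 1 against 9873 and 11335 CPM in the other PBS libraries, and PBS replicate 2 held more S100a8 than its group.

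Levels are given in CPM, which are read counts in proportion to the size of the library after TMM scaling. Interaction was measured in 2 ways. The log2 interaction compares the log2 fold change that IL-17A made on top of IL-36γ with the one it made alone, and is the first less the second. It is 0 when the fold changes of the single cytokines multiply and below 0 when the combination falls short of their product. The additive excess is the mean level after IL-17A + IL-36γ minus the level expected if the increments of the single cytokines over PBS were added. A gene can lie below the product and above the sum at the same time. Both were tested in 1 quasi-likelihood fit of edgeR, and genes whose p-value stayed under 0.05 after Benjamini-Hochberg adjustment were called.

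The single effects set the scene for the interaction. With an absolute log2 fold change of more than 1 and the same adjusted threshold, IL-17A alone changed 407 genes (2.1% of those tested, 208 up at 1.07% and 199 down at 1.03%), and IL-36γ alone changed 1377 (7.1%, 992 up at 5.11% and 385 down at 1.98%). The combination changed 2603 genes against PBS (13.4%, 1426 up at 7.35% and 1177 down at 6.06%). Against IL-17A alone it changed 1737 (8.95%, 865 up at 4.46% and 872 down at 4.49%), and against IL-36γ alone 2 (0.0103%), both down and 0 up. These 2, named after their values were seen, were Chp2, a calcium-binding partner of sodium-proton exchangers, with a log2 fold change of -1.09 (SE 0.15), and Lmx1a, a LIM homeobox factor, with -1.69 (SE 0.23), each at an adjusted p-value of 0.0473.

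The genes with a called log2 interaction mostly lay below 0, and most of these had higher means than PBS after each cytokine alone and lower means than either after both. The genes below 0 included the immediate early genes Fos, Egr1 and Dusp1 and the mucin-like gene Fcgbp, which had this shape. Also below 0 were the macrophage genes Adgre1, Csf1r, C1qa and Lyz2 and the acute-phase genes Saa3, Cfb and Lcn2, which did not have it. Lcn2 was highest after both cytokines, and the others just listed had means after both between those after the single cytokines. Not every macrophage gene did so: Marco, described further on, had the same shape as Fos and Fcgbp. In all, 107 of the 19408 genes were called (0.551%), 82 below 0 (0.423%) and 25 above 0 (0.129%). At an unadjusted p-value below 0.05 there were 2707 genes below 0 (13.9%) and 1666 above 0 (8.58%). Whether called or not, 11371 of the 19408 genes lay below 0, and so did 10077 of the 15283 protein-coding genes. These counts and the shares called are the background for the gene lists below. The median log2 interaction of all genes was -0.07, and scaling by library size only moved it to 0.107. With that scaling the balance at an unadjusted p-value below 0.05 turned over, to 967 genes below 0 and 3310 above, and with DESeq2's size factors it was 2314 and 1894. DESeq2's likelihood ratio test called 1883 genes (9.7%), 1108 below 0 (5.71%) and 775 above 0 (3.99%), the shares against which its counts in gene lists are to be read. On the additive scale 2 genes were called (0.0103%), Fcgbp and Zfp36l1, both below the sum. With edgeR 0 genes were called above the sum, and limma on weighted CPM called 1. At an unadjusted p-value below 0.05 edgeR gave 1857 genes above the sum (9.57%) and 2123 below it (10.9%), and with library size only 3647 and 649.

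The called genes had a common shape. Of the 82 genes below 0, 70 had both single-cytokine means above PBS, and in 61 the mean after IL-17A + IL-36γ lay below that after each single cytokine. Both held for 49 of them (59.8%), against 10.8% of all genes tested. For 33 genes the combination was even below PBS. In 44 of the 82 genes every library of the combination lay below all 6 libraries of the single cytokines, which was so for 8.986% of all genes. The genes above 0 had the mirror image: 24 of 25 were lower than PBS after each single cytokine and higher than both after the combination, against 12.6% of all genes. Since the call itself uses these 4 means, the shapes are a description of the called genes. Of the genes below 0, 80 encode proteins, whereas 10 of the 25 genes above 0 do. The adjusted p-values were close to the threshold, at 0.04 or above for 72 of the 82 and 24 of the 25 genes.

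**Figure D1:**
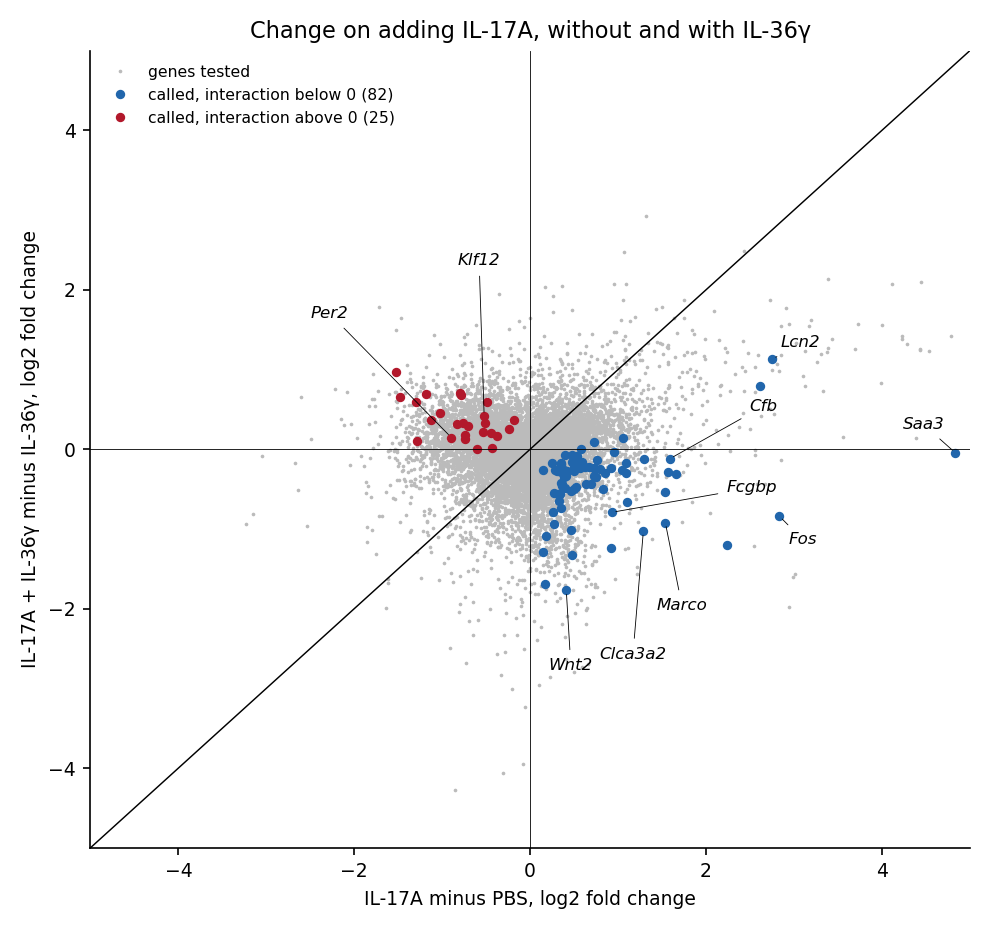
Log2 fold change on adding IL-17A without IL-36γ (horizontal axis) and with IL-36γ (vertical axis) for the 19408 genes tested, with called genes in blue (82, log2 interaction below 0) and red (25, above 0). On the diagonal line the log2 interaction is 0, and most blue genes lie to the right of the vertical line and below the horizontal one, where the mean was higher with IL-17A alone and lower when it was added to IL-36γ.

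The promoters of 4 of these genes are shown because they stand for the kinds of genes described below, with an acute-phase, a mucin-like and an immediate early gene below the product and a clock gene above it. The letters are the 250 bases before the start of the RefSeq transcript in GRCm38.p6, written 5′ to 3′ on the gene's strand, with matches to the searched motifs in capitals. The gene spans given further on are those of the GENCODE annotation, which can begin elsewhere.
Saa3, chr7:46715677-46715926, minus strand: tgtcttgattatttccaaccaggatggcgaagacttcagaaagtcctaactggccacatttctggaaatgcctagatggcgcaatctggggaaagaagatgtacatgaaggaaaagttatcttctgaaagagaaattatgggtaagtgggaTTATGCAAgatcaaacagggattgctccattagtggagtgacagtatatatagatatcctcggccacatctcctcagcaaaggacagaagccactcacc
Fcgbp, chr7:28070986-28071235, plus strand: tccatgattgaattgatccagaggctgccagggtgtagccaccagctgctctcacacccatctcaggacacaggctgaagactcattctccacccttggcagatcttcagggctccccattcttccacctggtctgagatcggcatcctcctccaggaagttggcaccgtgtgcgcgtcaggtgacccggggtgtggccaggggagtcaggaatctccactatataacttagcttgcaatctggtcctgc
Dusp1, chr17:26508473-26508722, minus strand: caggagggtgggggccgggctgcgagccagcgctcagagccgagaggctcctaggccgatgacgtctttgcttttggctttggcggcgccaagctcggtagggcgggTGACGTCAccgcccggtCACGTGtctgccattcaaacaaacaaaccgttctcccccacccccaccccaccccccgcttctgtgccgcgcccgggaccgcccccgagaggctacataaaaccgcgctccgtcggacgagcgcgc
Per3, chr4:151044666-151044915, minus strand: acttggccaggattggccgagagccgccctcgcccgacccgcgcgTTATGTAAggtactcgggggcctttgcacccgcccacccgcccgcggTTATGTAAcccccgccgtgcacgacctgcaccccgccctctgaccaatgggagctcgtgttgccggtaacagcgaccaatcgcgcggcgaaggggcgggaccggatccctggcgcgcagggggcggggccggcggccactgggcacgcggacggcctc
Capitals mark TTNNGCAA in Saa3, a C/EBP-type motif, TGACGTCA and CACGTG in Dusp1, known as the CRE and the E-box, and TTATGTAA in Per3, the D-box of clock genes, which occurs 2 times. Both strands were searched for these 4, for TATAAA, for TGANTCA (AP-1) and for the NF-κB motif, and the Fcgbp window held no match. Windows of the same length were held for 27025 genes, among them 51 of the 82 called genes below 0 and 13 of the 25 above 0. The C/EBP-type motif was found in 10.842% of all genes and in 7 of the 51, the CRE in 1.769% and 1 of the 51, the E-box in 6.86% and 4 of the 51, and the NF-κB motif in 8.233% and 4 of the 51. AP-1 was found in 7.819% of all genes, 3 of the 51 and 2 of the 13, TATAAA in 14.327% of all genes, 7 of the 51 and 4 of the 13, and the D-box in 0.977% of all genes, 0 of the 51 and 1 of the 13, which is Per3. Of the 13, 1 held the C/EBP-type motif and 0 the CRE, the E-box or the NF-κB motif. These matches are a description of letters and not of sites in use.

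Fcgbp, which encodes a mucin-like protein that binds the Fc part of IgG (chr7:28071236-28120862, plus strand, GRCm38), had the smallest p-value on both scales. Fcgbp was measured at 702, 872 and 775 CPM in the PBS libraries, 1505, 1441 and 1528 CPM after IL-17A, 1541, 1438 and 1739.9 CPM after IL-36γ and 873, 781 and 1073 CPM after IL-17A + IL-36γ. Each cytokine alone raised it, by a log2 fold change of 0.93 and 1.01, and all 3 libraries of the combination were below all 6 libraries of the single cytokines. The log2 interaction was -1.72 (SE 0.18, adjusted p = 0.00866). The mean after both was 909 ± 149 CPM (SD, n = 3) where addition gives 2281 CPM, an excess of -1372 CPM (SE 149.8, adjusted p = 0.0176). Clca3a2, a secreted protein of the chloride channel accessory family, had a similar course. Clca3a2 was measured at 343, 822 and 537 CPM in the PBS libraries, 1103, 1284 and 1771 CPM after IL-17A, 1464, 1012 and 1258 CPM after IL-36γ and 489, 488 and 856 CPM after IL-17A + IL-36γ. Its log2 interaction was -2.31 (SE 0.44, adjusted p = 0.0475), and part of its reads can belong to the close paralog Clca3a1.

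Zfp36l1 and its relative Zfp36l2, which bind AU-rich elements and shorten the life of mRNAs, and the Id genes, which encode inhibitors of basic helix-loop-helix factors, went the same way. Zfp36l1 was measured at 60.3, 58.5 and 54.3 CPM in the PBS libraries, 89.9, 88.5 and 89.1 CPM after IL-17A, 75.96, 69.96 and 79.3 CPM after IL-36γ and 60.6, 69.9 and 61.9 CPM after IL-17A + IL-36γ. The 3 IL-17A libraries lay close together and above all others, and the log2 interaction was -0.85 (SE 0.10, adjusted p = 0.0122). Its additive excess was -42.4 CPM (SE 5.15, adjusted p = 0.0273). Id3 was measured at 43.6, 40.7 and 42.9 CPM in the PBS libraries, 60.7, 76.2 and 69.2 CPM after IL-17A, 56.2, 50.9 and 56.9 CPM after IL-36γ and 34.3, 39.7 and 46.8 CPM after IL-17A + IL-36γ. For Id3 the combination was below PBS in mean, with a log2 interaction of -1.14 (SE 0.16, adjusted p = 0.0242). Of the 6 genes of these families, 4 were called below 0 (Zfp36l1, Zfp36l2, Id1 and Id3), against 0.423% of all genes. Called or not, all 6 were below 0, against 11371 of all 19408 genes, and their median was -0.81. This list was written after the values were seen.

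Acute-phase proteins are secreted defence proteins that IL-1-type cytokines and IL-6 raise, and many of them are regulated by C/EBP and NF-κB factors. Of the 12 tested, 3 were called below 0 (Saa3, Cfb and Lcn2), against 0.423% of all genes. Called or not, 11 were below 0, against 11371 of all 19408 genes, and the median was -0.77. Serum amyloid A3 (Saa3, chr7:46711998-46715700, minus strand) had the lowest log2 interaction of the genes named. Saa3 was measured at 0.8305, 0.934 and 0.364 CPM in the PBS libraries, 30.4, 11.1 and 20.4 CPM after IL-17A, 141, 168 and 139.6 CPM after IL-36γ and 135, 98.1 and 202 CPM after IL-17A + IL-36γ. Every cytokine library was far above PBS, and the combination overlapped IL-36γ alone. IL-17A raised Saa3 by a log2 fold change of 4.84 in the absence of IL-36γ and changed it by -0.05 (adjusted p = 0.965) in its presence, a log2 interaction of -4.88 (SE 0.56, adjusted p = 0.0122). On the additive scale its excess was -24.5 CPM (SE 31.9, unadjusted p = 0.458), a departure smaller than its SE.

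Cfb, complement factor B of the alternative pathway, behaved like Saa3 at a lower level. Cfb was measured at 1.61, 1.98 and 1.88 CPM in the PBS libraries, 5.75, 5.29 and 5.43 CPM after IL-17A, 12.5, 12.03 and 11.5 CPM after IL-36γ and 9.36, 10.4 and 13.4 CPM after IL-17A + IL-36γ. The log2 interaction was -1.71 (SE 0.20, adjusted p = 0.0122). Lcn2, which encodes lipocalin-2, a protein that withholds iron from bacteria, was the exception among the genes below 0. Lcn2 was measured at 2.104, 3.57 and 1.85 CPM in the PBS libraries, 19.1, 16.5 and 15.2 CPM after IL-17A, 45.8, 61.2 and 38.7 CPM after IL-36γ and 118, 100.3 and 100.4 CPM after IL-17A + IL-36γ. All libraries of the combination were above all others, and the mean of 106 ± 10.2 CPM (SD, n = 3) exceeded the 63.00 CPM of the sum by 43.2 CPM (SE 10.96, unadjusted p = 0.00196). It still fell short of the product, with a log2 interaction of -1.62 (SE 0.30, adjusted p = 0.0475). Among the 82 genes below 0 it was the 1 gene with an excess above 0.

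The 11 complement genes of the classical and alternative pathways tested were below 0, against 11371 of all 19408 genes, and had a median of -1.07. Of the 11, 3 were called (C1qa, C1ra and Cfb), against 0.423% of all genes. C1ra encodes a protease of the first complement component. C1ra was measured at 30.5, 38.3 and 36.8 CPM in the PBS libraries, 61.8, 60.2 and 51.9 CPM after IL-17A, 77.4, 74.5 and 77.5 CPM after IL-36γ and 56.1, 67.8 and 70.7 CPM after IL-17A + IL-36γ. The combination lay between PBS and the level after IL-36γ, with a log2 interaction of -0.96 (SE 0.15, adjusted p = 0.0412). Cfd, a protease of the alternative pathway that adipocytes make, was lowest at -2.36 (adjusted p = 0.127). C3, the central component, had a log2 interaction of -1.95 and did not pass (adjusted p = 0.0861). The 11 genes summed to 473 to 825 CPM in the PBS libraries, 1133 to 1333 CPM after IL-17A, 1187 to 1492 CPM after IL-36γ and 852 to 1101 CPM after both. This list was also written after the values were seen, and C1qa is a macrophage product as well.

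Immediate early genes encode transcription factors and phosphatases that cells switch on within minutes of a stimulus, and that also respond to handling of tissue. Of the 21 tested, 6 were called below 0 (Fos, Egr1, Dusp1, Junb, Ier2 and Klf2), against 0.423% of all genes. Called or not, 21 were below 0 (19 when scaled by library size only), against 11371 of all 19408 genes, and the median was -0.97. Fos was measured at 19.9, 27.5 and 26.2 CPM in the PBS libraries, 56.6, 247 and 222 CPM after IL-17A, 164, 142 and 151 CPM after IL-36γ and 31.6, 92.9 and 131 CPM after IL-17A + IL-36γ. The IL-17A libraries were uneven, with replicate 1 far below the others, and the combination overlapped that low library. The log2 interaction of Fos was -3.67 (SE 0.72, adjusted p = 0.0498). Egr1 had the same order of groups. Egr1 was measured at 16.2, 16.8 and 15.5 CPM in the PBS libraries, 35.2, 74.1 and 44.4 CPM after IL-17A, 29.3, 24.8 and 31.2 CPM after IL-36γ and 17.4, 23.8 and 27.7 CPM after IL-17A + IL-36γ. Its log2 interaction was -1.97 (SE 0.33, adjusted p = 0.0429).

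Dusp1, a phosphatase that ends MAP kinase signals (chr17:26505590-26562128, minus strand), was less variable. Dusp1 was measured at 42.9, 42.5 and 35.1 CPM in the PBS libraries, 85.9, 145 and 117 CPM after IL-17A, 98.96, 89.5 and 92.9 CPM after IL-36γ and 45.9, 63.5 and 84.4 CPM after IL-17A + IL-36γ. All single-cytokine libraries were above the highest library of the combination, and the log2 interaction was -2.07 (SE 0.29, adjusted p = 0.0242). Junb and Ier2 had values of -1.26 and -1.15, and Klf2, a factor of quiescent endothelium and lymphocytes, one of -1.30. Atf3 (-2.05, adjusted p = 0.113) and Fosb (-1.83, adjusted p = 0.265) were lower than several called genes without passing. At the other end Egr2 and Nr4a3 had values of -0.04 and -0.12. The sum of the list was 1082 to 1141 CPM in the PBS libraries, 1344 to 2135 CPM after IL-17A, 1610.2 to 1858 CPM after IL-36γ and 1168 to 1592 CPM after both. Rgs1, a regulator of G protein signals in leukocytes, followed the same course, with 3.13, 4.84 and 3.698 CPM in the PBS libraries, 10.03, 12.9 and 11.6 CPM after IL-17A, 9.15, 9.11 and 8.92 CPM after IL-36γ and 4.99, 8.71 and 8.53 CPM after both. Its log2 interaction was -1.85 (SE 0.29, adjusted p = 0.0412).

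**Figure D2:**
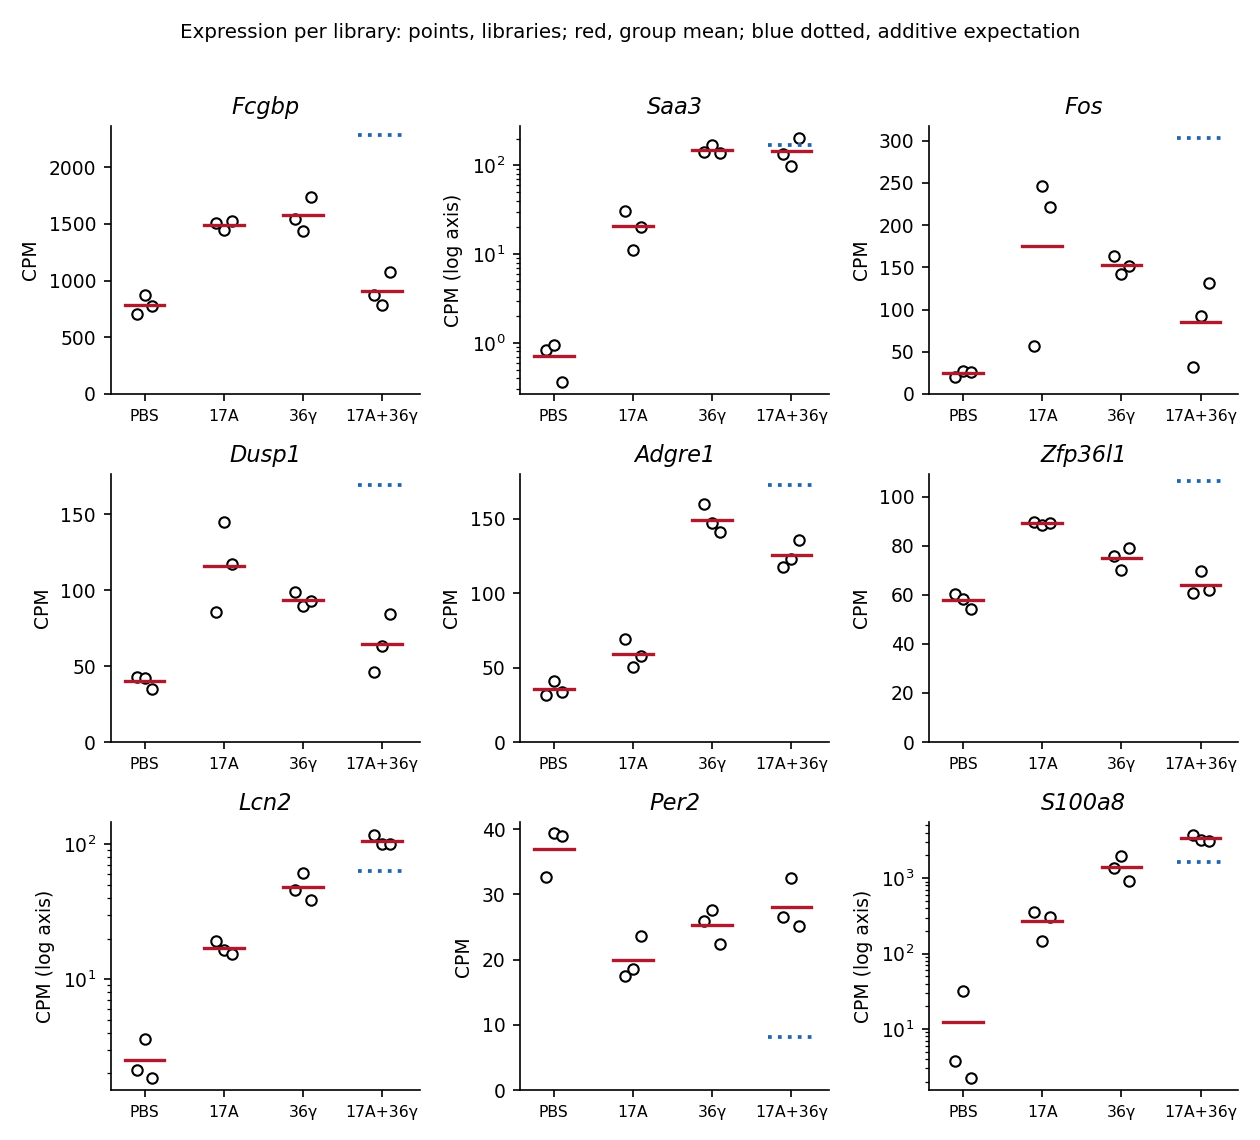
Level of 9 genes in each library in CPM, with a log axis for Saa3, Lcn2 and S100a8 and axes from 0 for the others. Points are the 3 libraries of a group, red lines group means, and dotted blue lines the mean that adding the single-cytokine increments gives. Fcgbp, Fos, Dusp1, Adgre1 and Zfp36l1 lie under that line in every library of the combination, while Lcn2, S100a8 and Per2 lie above it and Saa3 lies on both sides.

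Markers of monocytes and macrophages were below 0 without exception. Of 15 tested, 4 were called by edgeR (Adgre1, Csf1r and C1qa among them), against 0.423% of all genes called below 0. DESeq2 called 10, against 9.7% of all genes, and the median in edgeR was -0.99. Adgre1 encodes the surface protein F4/80. Adgre1 was measured at 31.6, 41.2 and 33.6 CPM in the PBS libraries, 69.2, 50.7 and 57.6 CPM after IL-17A, 159.7, 147 and 141 CPM after IL-36γ and 117, 123 and 136 CPM after IL-17A + IL-36γ. IL-36γ raised it most, and the 3 libraries of the combination lay below the 3 of IL-36γ alone, with a log2 interaction of -0.99 (SE 0.17, adjusted p = 0.0429). Csf1r encodes the receptor for the growth factor of macrophages. Csf1r was measured at 154, 159 and 153 CPM in the PBS libraries, 242, 195 and 214 CPM after IL-17A, 273, 244 and 249 CPM after IL-36γ and 235, 231 and 223 CPM after IL-17A + IL-36γ. The combination libraries lay below those of IL-36γ, and the log2 interaction was -0.63 (SE 0.11, adjusted p = 0.0459). Lyz2, the lysozyme of myeloid cells, had a log2 interaction of -0.99 (SE 0.13, adjusted p = 0.0242). Its combination libraries, at 561, 635 and 622 CPM, overlapped those of IL-36γ, at 657, 615 and 592 CPM, and lay above those of IL-17A, at 495, 402 and 460.0 CPM. Marco, a scavenger receptor, was called at a low level, with 1.16, 1.47 and 1.42 CPM in the PBS libraries, 2.89, 4.09 and 4.83 CPM after IL-17A, 4.23, 4.995 and 4.75 CPM after IL-36γ and 1.87, 1.87 and 3.61 CPM after both. The log2 interaction of Marco was -2.46 (SE 0.37, adjusted p = 0.0412).

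The summed level of the 15 macrophage markers was 756 to 911 CPM in the PBS libraries, 1161 to 1641 CPM after IL-17A, 1793 to 1990.5 CPM after IL-36γ and 1640.3 to 1833 CPM after both, so that the combination overlapped IL-36γ and was above PBS. Antigen-presenting cells shared the direction. Of 11 Langerhans and dendritic cell markers, 10 were below 0 with a median of -0.89, and H2-Ab1, a chain of MHC class II, was called at -0.89 (SE 0.17, adjusted p = 0.0475). H2-Ab1 was measured at 139.7, 197 and 178 CPM in the PBS libraries, 216, 231 and 197 CPM after IL-17A, 192, 162 and 172 CPM after IL-36γ and 110.0, 128 and 117 CPM after IL-17A + IL-36γ. The combination was below all other libraries. Among T cell markers Cd4 was called at -1.33 (SE 0.19, adjusted p = 0.0242), whereas the median of the 10 markers was -0.20. Of these 10, 9 were below 0 and 3 had an unadjusted p-value below 0.05, while Cd3e was the 1 above 0, at 0.20. The 5 gamma-delta T cell markers tested were below 0 as well, with a median of -0.70, 3 at an unadjusted p-value below 0.05 and 0 called in edgeR, against 1 in DESeq2. Rel, an NF-κB subunit of leukocytes, was called at -0.55 (SE 0.10, adjusted p = 0.0459), and the 15 genes of NF-κB and its inhibitors had a median of -0.15.

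Inflammatory CC chemokines, which attract monocytes and other leukocytes, pointed the same way without a call. Of 14 tested, 13 were below 0, 7 had an unadjusted p-value below 0.05 in edgeR and 5 were called by DESeq2 (9.7% of all genes). Ccl8 had a log2 interaction of -1.86 (adjusted p = 0.0531), Ccl9 one of -1.29 (adjusted p = 0.0602) and Ccl5 one of 0.24. The interferon lists had medians of -0.12 for 17 genes inducible by interferon-γ and -0.29 for 20 genes of the type I response, against -0.07 for all genes. Of the type I genes 18 were below 0 and 17 above the sum, and of the interferon-γ genes 10 and 11. DESeq2 called 0 in either list, and in edgeR each list had 1 gene below 0 at an unadjusted p-value below 0.05.

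Called genes above 0 were fewer, 25 against 82, with a median of 1.04 against -0.97 for those below 0. An absolute log2 interaction over 1 was found in 14 of the 25 and 35 of the 82. Per2 and Per3, repressors of the circadian clock, were among the highest of those named. Per2 was measured at 32.7, 39.5 and 38.9 CPM in the PBS libraries, 17.5, 18.6 and 23.7 CPM after IL-17A, 25.95, 27.6 and 22.4 CPM after IL-36γ and 26.5, 32.5 and 25.1 CPM after IL-17A + IL-36γ. Both single cytokines were below PBS, IL-17A most, and the combination overlapped IL-36γ alone, with a log2 interaction of 1.04 (SE 0.19, adjusted p = 0.0475). Per3 was measured at 159, 175 and 187 CPM in the PBS libraries, 86.2, 101 and 123 CPM after IL-17A, 109, 122 and 123 CPM after IL-36γ and 123, 141 and 125 CPM after IL-17A + IL-36γ. For Per3 the libraries of IL-17A were also the lowest in mean and the combination overlapped IL-36γ, with a log2 interaction of 0.88 (SE 0.16, adjusted p = 0.0475). Arntl, which encodes the activator BMAL1 and peaks in opposite phase to the Per genes, was called below 0. Arntl was measured at 35.5, 31.3 and 28.2 CPM in the PBS libraries, 45.01, 45.3 and 46.1 CPM after IL-17A, 34.8, 30.8 and 42.2 CPM after IL-36γ and 25.5, 24.6 and 27.8 CPM after IL-17A + IL-36γ. IL-17A raised it and the combination lay below PBS, with a log2 interaction of -0.99 (SE 0.16, adjusted p = 0.0412). Of the 18 clock genes tested, 2 were called above 0 and 1 below 0, against 0.129% and 0.423% of all genes, and the median was 0.15. Ciart, another repressor, had a value of 1.03 (adjusted p = 0.0705), and Nr1d1 and Dbp had values of -0.19 and 0.35. The time of day at which each mouse was sampled is not given in the sources used here, and its part in these values was not tested.

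Other genes above 0 were Klf12, a repressor of the Krüppel-like family, Ccl25, a chemokine of thymus and gut, Mthfsd, Rtel1, Ralgapa2 and Ap1g2. Klf12 was measured at 8.42, 9.598 and 9.699 CPM in the PBS libraries, 5.82, 6.08 and 7.402 CPM after IL-17A, 8.19, 8.62 and 8.99 CPM after IL-36γ and 10.5, 12.5 and 11.4 CPM after IL-17A + IL-36γ. All libraries of the combination exceeded all others, and the log2 interaction was 0.94 (SE 0.17, adjusted p = 0.0459). Ccl25 was measured at 11.7, 12.8 and 13.6 CPM in the PBS libraries, 8.72, 9.08 and 8.93 CPM after IL-17A, 8.45, 9.81 and 9.05 CPM after IL-36γ and 10.8, 12.3 and 11.3 CPM after IL-17A + IL-36γ. Here the single cytokines lowered the level and the combination was near PBS, with a log2 interaction of 0.84 (SE 0.14, adjusted p = 0.0412). Ralgapa2, a subunit of a Ral GTPase activator, had a value of 0.55. For Mthfsd, Rtel1, a helicase of telomeres, and Ap1g2, an adaptor subunit of vesicles, they were 0.75, 0.55 and 0.49. With Per2 and Per3, these 8 genes had a log2 interaction of 0.49 to 1.04, against -1.71 to -4.88 for the 12 lowest genes named by the same rule.

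The remaining low genes include several that are known from hair follicle, stroma or epithelium. Wnt2, a ligand of the Wnt pathway, was at 1.11, 2.12 and 2.55 CPM in the PBS libraries, 2.405, 2.99 and 2.25 CPM after IL-17A, 1.26, 1.19 and 1.41 CPM after IL-36γ and 0.429, 0.329 and 0.368 CPM after both. The combination was below all other libraries, with a log2 interaction of -2.18 (SE 0.42, adjusted p = 0.0475). Krt19, a keratin of simple epithelia and follicle stem cells, also had its lowest libraries in the combination, with a log2 interaction of -1.81 (SE 0.33, adjusted p = 0.0475). Serpina3j, a protease inhibitor of a family with many similar copies among which reads can be split, was called at -2.16 (SE 0.42, adjusted p = 0.0475). Sox9, a factor of follicle stem cells and cartilage, was at 40.2, 34.2 and 30.9 CPM after IL-17A and 16.7, 18.7 and 15.7 CPM after both, with a log2 interaction of -0.73 (SE 0.14, adjusted p = 0.0475). Ccdc3, a secreted protein of endothelium and fat, was called at -1.09 (SE 0.15, adjusted p = 0.0242), and its libraries of the combination were below all others.

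Genes by which psoriasis-like inflammation is often read gave opposite signs on the 2 scales. Of 25 such genes, among them the reference gene Hprt, Ly6g had at most 3 counts in every PBS library, so no interaction is given for it. Of the other 24, 21 were above the sum and 20 below the product, and 17 were both. Among all 19408 genes tested, 46.9% were above the sum, 11371 genes were below the product and 5.73% were both. The product exceeds the sum only where both cytokines alone move a gene the same way, which most genes tested did little. Of 143 genes raised by each cytokine alone, 55 were both above the sum and below the product (38.5%), so that this position is not particular to psoriasis genes. Of the 24 genes, Saa3 and Lcn2 were called on the log2 scale and 0 on the additive scale. On the additive scale 4 had an unadjusted p-value below 0.05 above the sum and 0 below it in edgeR. The alarmins S100a8 and S100a9 form calprotectin, a protein of neutrophils and stressed keratinocytes. S100a8 was measured at 3.82, 31.5 and 2.24 CPM in the PBS libraries, 360.0, 148 and 303 CPM after IL-17A, 1339, 1936 and 922 CPM after IL-36γ and 3767, 3175 and 3135 CPM after IL-17A + IL-36γ. All 3 libraries of the combination were above all others, and the mean of 3359 ± 354 CPM (SD, n = 3) compares with 1657 CPM for the sum, an excess of 1702 CPM (SE 1226, unadjusted p = 0.19). The log2 interaction was -3.17 (SE 1.01, adjusted p = 0.107). For S100a9 the mean after both was 4975 ± 960.4 CPM against 2326 CPM for the sum, with a log2 interaction of -2.97 (SE 1.02, adjusted p = 0.125). The PBS libraries of S100a8 spread widely, and without PBS replicate 2 the log2 interactions of S100a8 and S100a9 were -5.19 and -5.00, each with an adjusted p-value of 0.00722. Without IL-17A replicate 1 they were -2.87 and -2.69, with adjusted p-values of 0.219 and 0.246. Among 19 alternatives S100a8 passed in 2 and S100a9 in 1.

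Stress keratins, which keratinocytes make in wounds and psoriatic plaques, were above the sum for 4 of 4 genes, with 0 called by edgeR or DESeq2. Krt6a was measured at 79.3, 97.1 and 49.04 CPM in the PBS libraries, 504, 116 and 82.4 CPM after IL-17A, 316, 867 and 210.0 CPM after IL-36γ and 2087, 1209 and 1058 CPM after IL-17A + IL-36γ. The combination was above all others, the excess was 828 CPM (SE 486, unadjusted p = 0.114), and the log2 interaction was 0.00 (SE 0.92, adjusted p = 0.999), a value with a wide error. Krt16 was measured at 29.9, 110.3 and 8.55 CPM in the PBS libraries, 729.6, 133 and 141 CPM after IL-17A, 1283, 2119 and 916 CPM after IL-36γ and 3816, 2451 and 2308 CPM after IL-17A + IL-36γ. IL-17A replicate 1 was several times higher than its group, and PBS replicate 2 likewise. Without PBS replicate 2 the log2 interaction of Krt16 was -3.12, and without IL-17A replicate 1 it was -0.44. With all libraries the value of Krt16 was -1.76 (SE 1.12, adjusted p = 0.365) and that of Krt6b -2.44 (SE 1.73, adjusted p = 0.418). Without IL-17A replicate 1 the value of Krt6b was -0.22 and without PBS replicate 2 it was -6.24, so that single libraries set its size.

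The beta-defensins Defb3 and Defb4 are antimicrobial peptides of keratinocytes. Defb4 was measured at 0.08305, 0.198 and 0.0606 CPM in the PBS libraries, 1.54, 0.166 and 0.684 CPM after IL-17A, 4.69, 13.04 and 2.31 CPM after IL-36γ and 42.3, 17.8 and 14.1 CPM after IL-17A + IL-36γ. The combination exceeded all other libraries, with an excess of 17.3 CPM (SE 7.23, unadjusted p = 0.034) and a log2 interaction of -0.85 (SE 1.40, adjusted p = 0.753). Defb3 had an excess of 16.95 CPM (SE 11.2, unadjusted p = 0.155) and a log2 interaction of -2.12 (SE 1.67, adjusted p = 0.469), which was -3.06 without replicate 1 of the combination and -0.35 with the share of TEC and sense intronic counts, described further on, as a covariate. The neutrophil chemoattractant Cxcl1 differed from them. Cxcl1 was measured at 0.8305, 1.02 and 0.727 CPM in the PBS libraries, 3.04, 7.48 and 4.71 CPM after IL-17A, 16.3, 9.26 and 17.7 CPM after IL-36γ and 8.82, 9.66 and 22.3 CPM after IL-17A + IL-36γ. Its combination libraries overlapped those of IL-36γ, its excess was -4.98 CPM (SE 3.78, unadjusted p = 0.212), and its log2 interaction was -2.64 (SE 0.60, adjusted p = 0.063). Cxcl2 and Cxcl5, which act on the same receptor, had excesses of 5.97 and 6.02 CPM and log2 interactions of -0.42 and -1.25. Il1f9, the gene of IL-36γ itself, and Il1f5, that of the IL-36 receptor antagonist, had means above both the sum and the product, with log2 interactions of 0.34 (SE 0.24, adjusted p = 0.426) and 0.41 (SE 0.24, adjusted p = 0.321). Il1f6, which encodes IL-36α, had a value of -0.74 (SE 0.39, adjusted p = 0.282). Without PBS replicate 1 it was -0.98 for Il1f6, and with the covariate it was -0.00048. Without replicate 1 of the combination it was 0.063 for Il1f9.

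**Figure D3:**
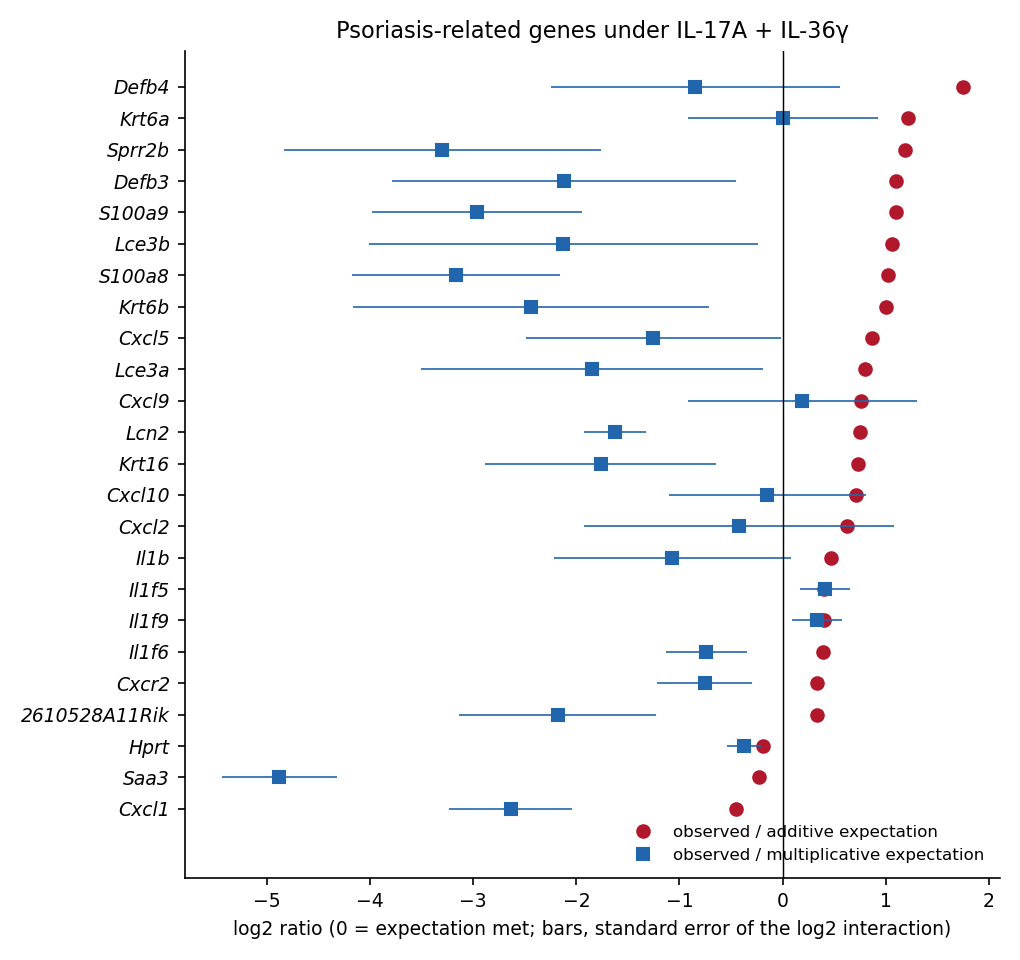
Observed level after IL-17A + IL-36γ divided by the level expected from adding (red circles) or multiplying (blue squares, with the standard error) the single-cytokine effects, as log2 ratios, for 24 genes read in psoriasis-like inflammation. Of these genes 21 lie above the sum, 20 lie below the product, and Saa3, Cxcl1 and Hprt lie below both.

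Other genes of the inflamed epidermis mostly lay between the same expectations. Among all 19408 genes tested, 46.9% were above the sum and 11371 genes were below the product. Antimicrobial proteins summed to 333 to 456 CPM in the PBS libraries, 1032 to 1560.2 CPM after IL-17A, 3167 to 5858 CPM after IL-36γ and 8679 to 11260.2 CPM after both, with 12 of 15 above the sum and 12 of 15 below the product. Small proline-rich proteins, which are crosslinked into the cornified envelope, were above the sum for 11 of 14 genes and had a median log2 interaction of -1.96. The 6 Lce3 genes were all above the sum and below the product (5 below with DESeq2's size factors or by library size only), and stefin A and Serpinb3 protease inhibitors were above the sum for 11 of 12 genes. Of these lists only the antimicrobial one had called genes (Lcn2 and Lyz2). In edgeR 4 Sprr genes and 4 of the inhibitors were below 0 at an unadjusted p-value below 0.05 and 1 Sprr gene above 0. DESeq2 called 1 Sprr gene on each side, 1 of the inhibitors and 0 Lce3 genes, where it called 9.7% of all genes. Mitosis genes were above the sum for 19 of 20 and below the product for 20 of 20 (15 when scaled by library size only), with log2 interactions of -0.52 to -0.10. With all libraries neither tool called 1 of them. Leaving out 1 library gave 0 to 15 mitosis genes called below 0 in edgeR, with a median from -0.76 to -0.02. All 12 markers of mature neutrophils were above the sum, with a median log2 interaction of -0.69 and 1 gene above 0 at an unadjusted p-value below 0.05, which DESeq2 called. The 12 and their median include Ly6g, which had at most 3 counts in every PBS library and for which no interaction is given by itself.

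Genes were also grouped by their response to the single cytokines. The thresholds were those of the single effects above. Of 143 genes raised by each, 143 had a log2 interaction below 0, 55 were above the sum and 13 had a called interaction. Of 65 genes lowered by each, 65 were above both expectations. These groups were chosen with the same PBS and single-cytokine libraries that enter the interaction, so that their direction is no finding. Of 485 genes that the combination raised and neither single cytokine did, 367 were above the sum, and here too the choice uses the means that make up the excess and favours that direction.

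The largest departures from the sum in CPM were in abundant transcripts. Above it were Malat1, a nuclear non-coding RNA, with an excess of 4010.5 CPM (SE 1277, adjusted p = 0.127), and Krt1, a keratin of differentiated epidermis, with 3043 CPM (SE 1485, adjusted p = 0.271). Below it were the mitochondrial ribosomal RNA mt-Rnr2, with -14652 CPM (SE 3819, adjusted p = 0.0928), and Krt2, a keratin of the upper epidermis, with -10989 CPM (SE 3346, adjusted p = 0.116). Krt2 had a mean of 19262 ± 1812 CPM after IL-36γ and 10206 ± 1057 CPM after both (SD, n = 3). None of the 4 was called, and they were chosen after their values were seen.

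**Figure D4:**
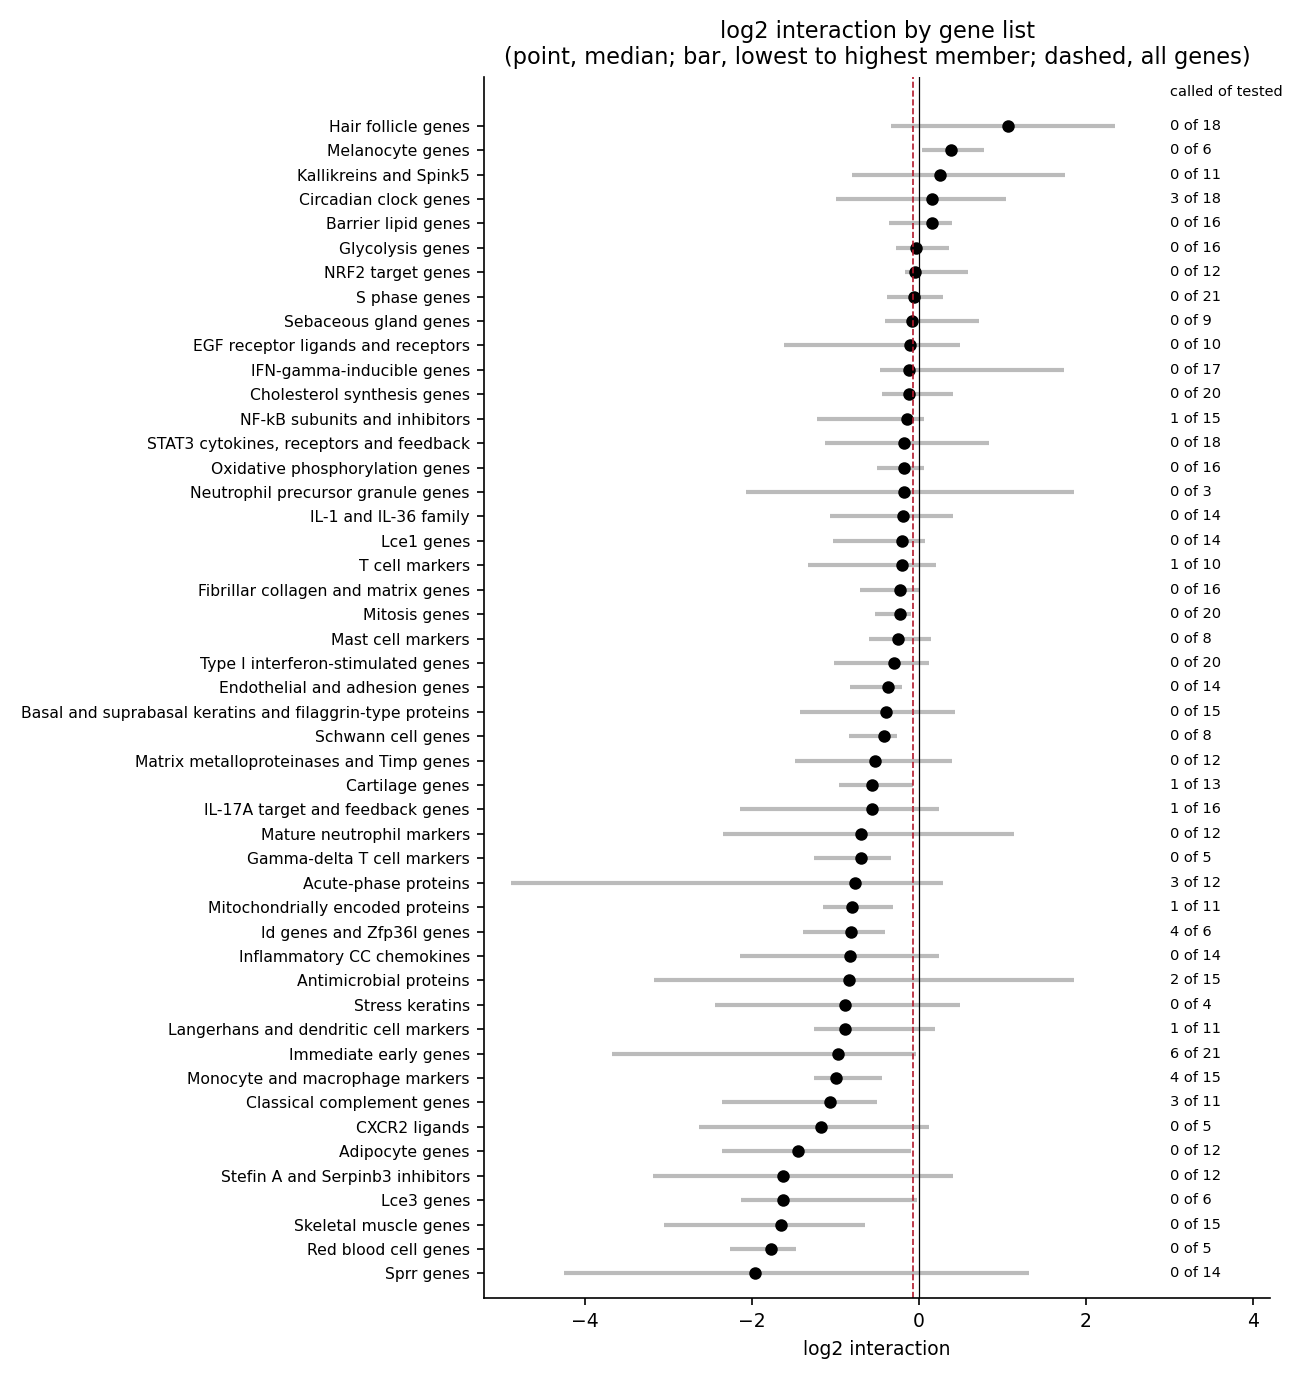
Log2 interaction of 48 gene lists, with the median as a point, the lowest and highest member as a bar, the median of all genes as a dashed line and the number of called among tested genes at the right. The immediate early genes have 6 of 21 called and the macrophage markers 4 of 15, while the lists with the lowest medians, such as the Sprr, red blood cell and skeletal muscle genes, have 0 called.

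Skeletal muscle, adipocyte and red blood cell genes had low medians without a call in edgeR, while 1 of 13 cartilage genes was called (Sox9, above). Skeletal muscle genes were below 0 for 15 of 15, with a median of -1.65, and their sum was 1546 to 11335 CPM in the PBS libraries, 4939.9 to 8412 CPM after IL-17A, 3821 to 6029.7 CPM after IL-36γ and 1015 to 4548 CPM after both. These ranges overlap, and the lowest library is one of the combination. Adipocyte genes were below 0 for 12 of 12 (11 when scaled by library size only), with a median of -1.45, and haemoglobin and other red blood cell genes for 5 of 5, with a median of -1.77. Red blood cell genes summed to 129.8 to 331 CPM after IL-17A and to at most 147 CPM in any other library, which overlaps the lowest IL-17A library. In edgeR 2 muscle, 8 adipocyte and 5 red blood cell genes were below 0 at an unadjusted p-value below 0.05, and DESeq2 called 0, 4 and 5 of them, against 5.71% of all genes on that side. Hair follicle genes were the list with the highest median, 1.07, with 14 of 18 above 0, and melanocyte genes were above 0 for 6 of 6, with a median of 0.38. At an unadjusted p-value below 0.05 there were 1 and 2 genes above 0 in these lists, and DESeq2 called 1 and 0. The part of differing tissue content in the calls was not tested.

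Classes of transcripts differed in direction. Of 15283 protein-coding genes, 34.1% were above 0, with a median of -0.11. Of 1175 genes of the annotation class TEC, loci whose transcripts need experimental evidence, 88.8% were above 0 with a median of 0.75, and of 175 sense intronic RNAs 93.1% were, with a median of 0.77. TEC genes gave 7 of the 25 calls above 0 and lincRNAs 4. Many of these loci lie inside introns of other genes, and whether counting used strand is not given in the sources used here. TEC and sense intronic genes together took 0.325% to 0.474% of counts after PBS, 0.231% to 0.272% after IL-17A, 0.232% to 0.338% after IL-36γ and 0.270% to 0.356% after both. The share of mitochondrial counts moved too, at 4.30% to 5.66% after IL-17A and 3.11% to 3.73% in all other libraries. All 11 mitochondrially encoded proteins tested were below 0, and mt-Nd4, a subunit of respiratory complex I, was called at -1.15 (SE 0.21, adjusted p = 0.0475), with the reservation that nuclear copies of mitochondrial genes share its reads. With the share of TEC and sense intronic counts as a covariate, an alternative chosen after the data were seen, 0 genes were called in edgeR, 990 genes above 0 and 2006 below 0 had an unadjusted p-value below 0.05, and the lowest adjusted p-value was 0.0982. Under this covariate the median of the TEC genes was -0.02 and that of the sense intronic RNAs -0.09. The covariate is made of the counts of these classes, so that their medians near 0 follow from its use and are no finding. The immediate early genes had a median of -1.08 and the macrophage markers one of -0.74, with 0 genes called in either list.

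The number of calls depended on single libraries. It was 1534 without PBS replicate 1, 10 without PBS replicate 2 and 4 without PBS replicate 3. It was 23, 8 and 26 without IL-17A replicates 1, 2 and 3, and 1, 226 and 3 without IL-36γ replicates 1, 2 and 3. It was 2, 3 and 92 without replicates 1, 2 and 3 of the combination. Fcgbp was called in all 12 of these fits, Cfb and Saa3 in 10, Zfp36l1 in 8 and Lyz2 in 7. Most called genes were kept in few of them: 2 genes in 6 fits, 6 in 5, 14 in 4, 30 in 3, 41 in 2 and 9 in 1. Egr1 was called in 4 fits, Fos, Adgre1, Lcn2, Clca3a2 and Per3 in 3, and Csf1r and Wnt2 in 2. In all 12 fits the 107 genes kept their sign with an unadjusted p-value below 0.05. They were chosen by small p-values in these same libraries, so that this is no separate support for their direction. The 21 immediate early genes had a median between -1.11 and -0.75, and the 15 macrophage markers one between -1.11 and -0.78, with 15 of 15 below 0 throughout. The number of members called below 0 ranged from 0 to 10 in each of these lists. By contrast, the median of the Sprr genes ranged from -2.99 to 0.52 and that of the Lce3 genes from -2.46 to 0.87.

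**Figure D5:**
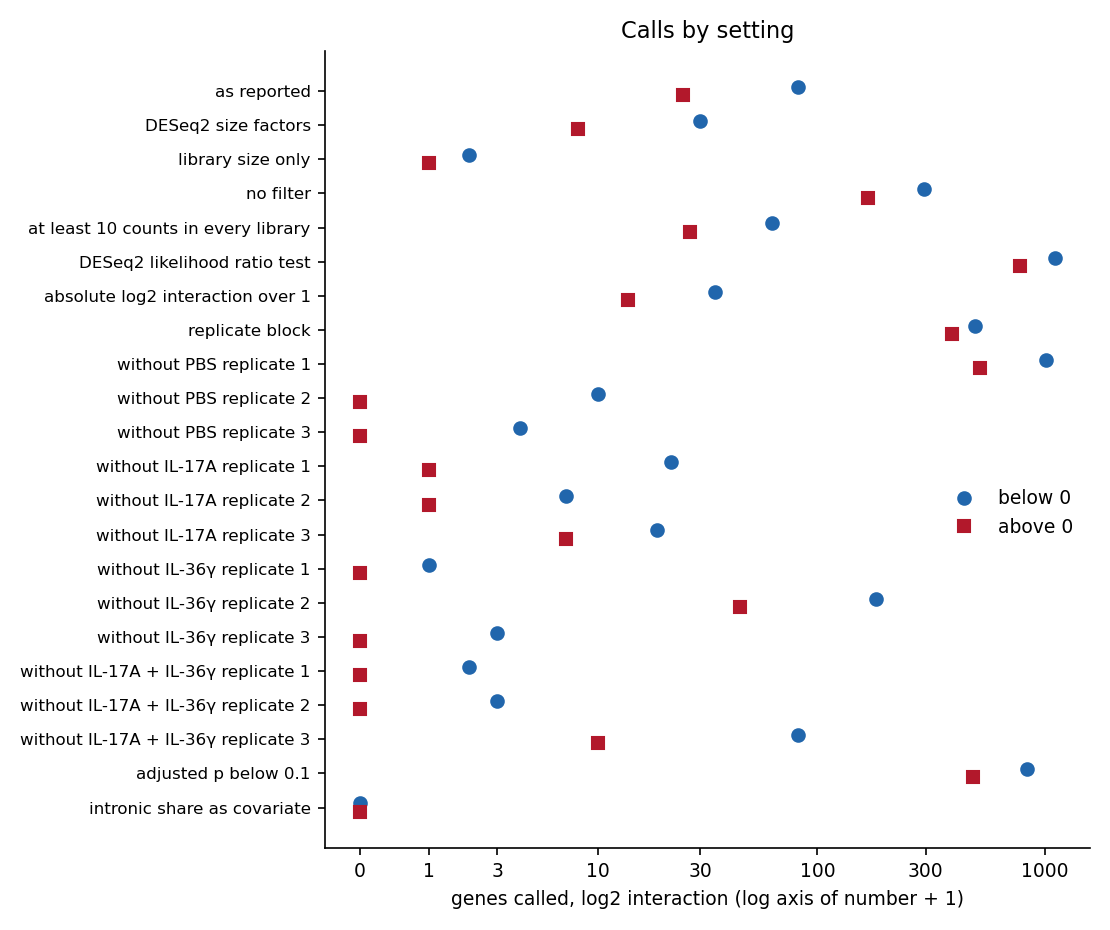
Number of genes with a called log2 interaction below 0 (blue circles) and above 0 (red squares) for the fit reported here, for each alternative and with each library left out, on a log axis of the number plus 1. The total ranges from 0 with the covariate to 1883 with the likelihood ratio test of DESeq2.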

How the data were processed

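Total RNA of whole ear skin was sequenced as 12 stranded libraries, 3 per group. Per the labels and the study's methods, the authors aligned reads to mm10 with STAR 2.5.2b and deposited raw counts per gene made with featureCounts (Subread 1.5.1, GENCODE vM21 identifiers). The strand setting of counting is not given in the sources used here. The 5 deposited tables of the authors' DESeq2 comparisons, which hold fold changes and p-values, were not used.

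Counts were tested with edgeR 4.0.16 (R 4.3.3) after filterByExpr with a minimum count of 10 and TMM scaling. The 4 group means were fitted in 1 quasi-likelihood model, the log2 interaction was its contrast, and the additive excess was a Wald test by the delta method on the fitted means in CPM. P-values were adjusted by Benjamini-Hochberg over all 19408 genes. The common biological coefficient of variation was 14.22%. No fold was given against a group with at most 3 counts in every library. Scripts were tested on simulated data.

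Named genes, with symbols and a mean of at least 1 CPM, were the called genes with the 12 lowest and up to 12 highest log2 interactions (9 passed), the genes with the smallest p-values of the excess, called members of gene lists and 25 psoriasis genes. Of these, 2 genes are not reported here. Members and lists were chosen with earlier results of these data known. DESeq2 1.42.0 and limma 3.58.1 served as alternatives. All pairs of libraries within a group differed by more than counting noise.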

Additional observations from a re-analysis of the deposited data

Results flagged for a closer look

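For 20 named genes the effect of adding IL-17A differed between skin with and without IL-36γ, by the test of the interaction in edgeR's quasi-likelihood fit at an adjusted p-value below 0.05. Below 0 were Saa3 (log2 interaction -4.88), Fos (-3.67), Marco (-2.46), Clca3a2 (-2.31), Wnt2 (-2.18), Serpina3j (-2.16), Dusp1 (-2.07), Egr1 (-1.97), Rgs1 (-1.85), Krt19 (-1.81), Fcgbp (-1.72) and Cfb (-1.71). Above 0 were Per2 (1.04), Klf12 (0.94), Per3 (0.88), Ccl25 (0.84), Mthfsd (0.75), Rtel1 (0.55), Ralgapa2 (0.55) and Ap1g2 (0.49). Groups of 3 libraries were too small for a test of single outlying libraries.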

How the results depend on the processing

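The log2 interaction gave 107 called genes, 25 above and 82 below 0. The number was 38 (8 above, 30 below) with DESeq2's size factors, 3 (1 and 2) with library size only, 462 (167 and 295) with no filter, 49 (14 and 35) with an absolute log2 interaction over 1 and 1883 (775 and 1108) with DESeq2's likelihood ratio test. With at least 10 counts in every library it was 90 (27 and 63). Of the alternatives chosen after seeing the data, an adjusted p-value below 0.1 gave 1320 (484 and 836), and the covariate of TEC and sense intronic counts gave 0 (0 and 0). Leaving out 1 library gave 1 to 1534 calls, 0 to 521 above and 1 to 1013 below 0. The additive excess gave 2 calls, none above and both below. It gave 0 (0 and 0) with library size only, 144 (57 and 87) with no filter, 3 (1 and 2) with at least 10 counts and with limma, 682 (288 and 394) with an adjusted p-value below 0.1, and 0 to 796 calls without single libraries (0 to 317 above, 0 to 479 below). The cause of these shifts was not tested, and the fits without a library also had fewer samples.

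The replicate numbers were not taken as pairs in the main fit. Among 18 pairs of libraries with the same number in different groups 9 correlated over 0.1 (median 0.097, from -0.199 to 0.352). Among 36 pairs with different numbers 9 did (median -0.0502, from -0.503 to 0.364). Whether the numbers stand for anything shared between libraries was not tested. With the replicate number as a block the log2 interaction gave 883 calls (391 above, 492 below) and the excess, fitted in limma, 599 (360 and 239).

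The 107 genes kept their sign and an unadjusted p-value below 0.05 in every alternative in which they were tested. As they were chosen from the same counts, this is no separate support for their direction. Library size only moved the median of all genes from -0.07 to 0.107. Named genes not called changed sign as follows: with the covariate Cxcl2 (0.13), Cxcl5 (0.77), Cxcl9 (-2.19), Cxcr2 (0.24), Defb4 (0.32), Hprt (0.0025), Lce3a (0.70) and Lce3b (0.40), with the block Cxcl9 (-0.21), and with library size only Cxcl10 (0.046). Without single libraries the range was -1.41 to 0.90 for Cxcl10, -3.64 to 1.78 for Cxcl2, -2.28 to 0.45 for Cxcl5, -1.26 to 0.85 for Cxcl9, -1.48 to 0.14 for Defb4, -2.94 to 0.31 for Il1b, -0.40 to 1.28 for Krt6a, -2.93 to 1.12 for Lce3a and -4.56 to 0.92 for Lce3b. With 3 libraries a group, the replicate spread limits both scales.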
